A study of Quercus robur with 165 samples.

Results

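WRKY (MSTRG.4799) is a single gene of the root transcriptome of pedunculate oak (*Quercus robur*), chosen by its name in the study's primer table, and it was 1 of 35397 genes in the expression tables. It was read in 165 libraries, which fall into 55 groups of 3 libraries. Dataset 1 (75 libraries, 25 groups) held the meristematic zone of taproots and the lateral roots of seedlings grown in containers or rhizotrons, which are flat clear-walled chambers. They were harvested at 7 or 8 weeks after sowing in spring, or at 8 weeks after sowing in summer. Dataset 2 (90 libraries, 30 groups) also held the elongation zone of the taproot and the roots of transplanted seedlings, which had spent a year in a container before a rhizotron. Its container and rhizotron seedlings came from older acorns of the same lot, whereas the transplanted ones had been sown the year before. No group had a treatment other than its cultivation, and the roots were sorted at harvest by the length of the taproot (short, medium or long), by thickness (normal or thick) and by vitality (normal or dying). Dying taproots were typically those that had reached the bottom of a container and were pruned by air there. Lateral roots carry the class of their seedling. For 2 groups the sample code and the description conflict: long 7-week container taproots of Dataset 1 are described as short, and the meristematic zone of long dying taproots of transplanted seedlings is described without the word for dying. Both groups were used by their codes.

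WRKY proteins are a large family of plant transcription factors, named after the conserved amino acids of their DNA-binding domain. They bind W-box elements in promoters, and in *Arabidopsis* and other plants members of the family act in defence, in responses to abiotic stress and wounding, in senescence and in development, the root included. The tables do not say which member of the family this oak gene is, and its position, protein and promoter were not analysed here. The primer pair that the study designed for the transcript is shown because it is the only sequence tied to the gene in the material used. It is given in lower case from the 5′ end, with the forward primer (20 bases) first and the reverse primer (22 bases) second.
WRKY forward: cccacgctaccaatttgatt
WRKY reverse: tgctgttgttgttgtgtttctg
WRKY genes share a conserved domain, and how many reads of this gene also match other members was not tested.

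Libraries held 20037169 to 24793325 expected counts in Dataset 1 (median 22351942) and 22882800 to 33341476 in Dataset 2 (median 30569090). The expected count of a gene is RSEM's estimate of how many read pairs came from it. Many libraries of a group were almost copies of each other: in 24 of 75 pairs of libraries within groups of Dataset 1, and in 54 of 90 in Dataset 2, the coefficient of variation beyond counting noise was under 0.05. Merging such libraries leaves 55 units in Dataset 1 and 49 in Dataset 2. The p-values below treat the 3 libraries of a group as replicates, so they may in part measure technical spread, and each call that was lost on merging is given with the merged value. The samples are bulk tissue, in which fewer cells of a type and less RNA per cell cannot be told apart. The genes of the tables carry no names that would allow root cell types to be checked by markers.

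*WRKY* was a gene of low to high expression, depending on the group. Levels are given in TPM (transcript abundance normalised to transcript length and to the library). Group means ran from 0.733 ± 0.425 TPM (SD, n = 3 libraries) in short container taproots at 8 weeks to 99.6 ± 67.4 TPM (SD, n = 3) in lateral roots of medium container seedlings at 7 weeks, a range of 136-fold, with a median of 7.54 TPM. In the lowest group *WRKY* stood at the 36.5th percentile of all genes and in the highest at the 95.1st. Its expected counts ran from 8 to 4337 per library, so that only the lowest groups were limited by counting noise. The median SD between libraries of a group was 0.13 on the log2 scale of CPM (counts scaled to library size), and the largest was 1.76. In 10 of the 55 groups the highest library was more than 2 times the lowest, 6 of them in Dataset 1 and 4 in Dataset 2.

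When the 55 groups were ordered by their mean, 50 of the 54 neighbouring groups overlapped in their libraries, and the order between them is not resolved. The 4 breaks in the order without overlap lay below the lateral roots of long 7-week seedlings (66.9 TPM), below short rhizotron taproots of Dataset 2 (5.43 TPM), below lateral roots of thick dying transplanted seedlings (2.84 TPM) and below long 8-week rhizotron taproots of Dataset 1 (1.60 TPM). Only the 2 groups of 7-week lateral roots stood far above the rest, since the next groups had means of 30.2 and 26.1 TPM. Shares of the variance between libraries (adjusted R-squared of log2 CPM) were taken with each class fitted by itself. The classes are not spread evenly over the groups, so the shares are not separate contributions. In Dataset 1 the harvest accounted for 45.8%, the length for 12.5% and the root part for 2.75%, with the other classes below 0. In Dataset 2 the root part accounted for 49.7%, and length, morphology with vitality, and cultivation for at most 1.21% each. The groups as a whole accounted for 83.1% and 86.6%.

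**Figure D1:**
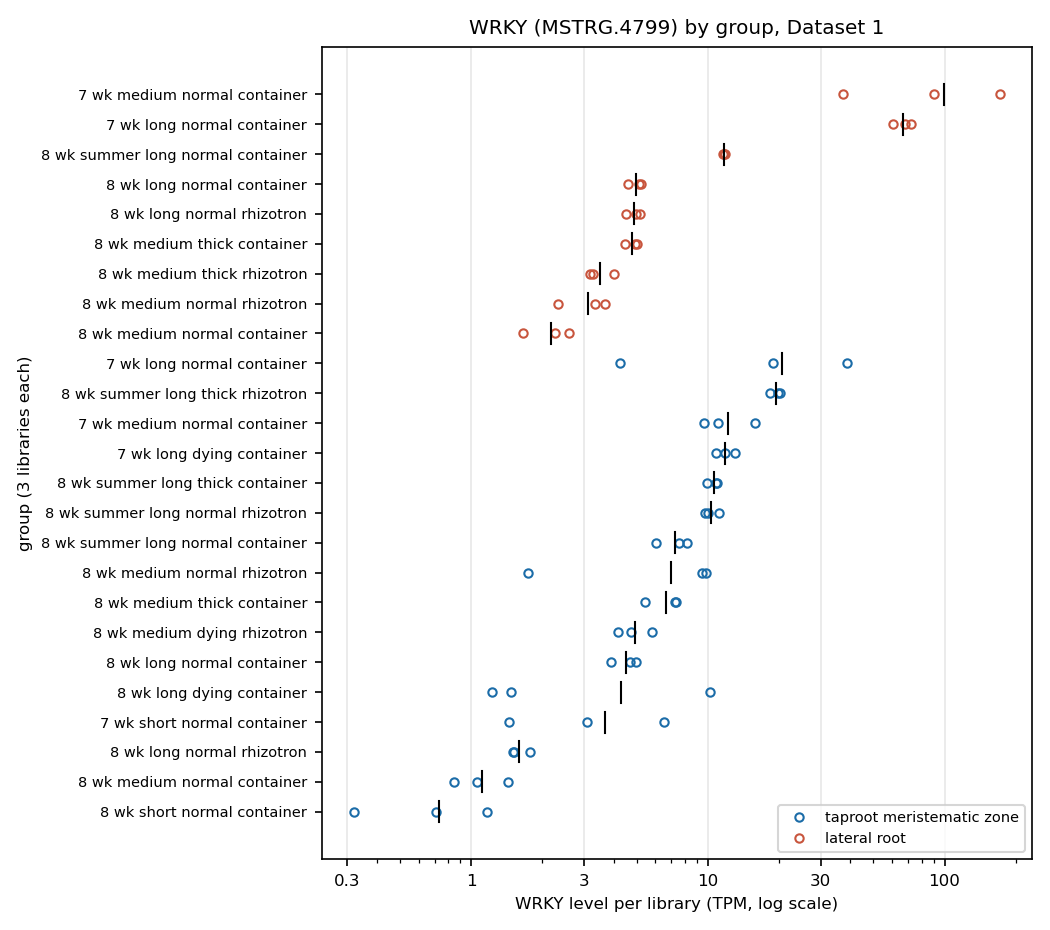
TPM of *WRKY* on a log axis in the 25 groups of Dataset 1, ordered by group mean within each root part. Circles are libraries and black bars are means of 3 libraries. The 6 libraries of 7-week lateral roots lie between 37.16 and 171.08 TPM, and the other 21 lateral root libraries at or below 11.86 TPM.

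Of the 25 averaged comparisons, that of age in lateral roots gave the largest change of *WRKY*. The 7-week and 8-week seedlings were sown in the same spring, and their comparison asks how gene expression changed within a week of growth. The ages were harvested on separate dates, so age and harvest date cannot be told apart. In lateral roots of medium container seedlings, *WRKY* read 90.67, 37.16 and 171.08 TPM at 7 weeks and 2.58, 1.65 and 2.26 TPM at 8 weeks. In lateral roots of long seedlings it read 72.12, 68.28 and 60.30 TPM at 7 weeks and 4.58, 5.21 and 5.1 TPM at 8 weeks. No 8-week library came near a 7-week one. The mean fell from 83.3 ± 46.4 to 3.56 ± 1.58 TPM (SD, n = 6 libraries each), a log2 fold change of -4.68 ± 0.44 (SE, adjusted p = 4.9e-05, edgeR's quasi-likelihood test). Of all genes tested, 12.6% were called in this comparison.

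Taproots showed the same direction at lower levels. Long normal container taproots read 38.78, 18.88 and 4.26 TPM at 7 weeks, the widest of the 7-week taproot groups, and 3.91, 4.67 and 4.95 TPM at 8 weeks. Medium taproots read 11.08, 15.86 and 9.61 TPM at 7 weeks against 1.43, 1.06 and 0.85 TPM at 8 weeks. Short taproots read 6.54, 3.08 and 1.44 TPM against 0.71, 1.17 and 0.32 TPM. In medium and short taproots the ages did not overlap, whereas 1 of the 3 long 7-week libraries lay among the 8-week ones. Long dying taproots read 11.76, 10.79 and 12.99 TPM at 7 weeks and 10.19, 1.22 and 1.48 TPM at 8 weeks. Over the 4 matched pairs the mean was 12.1 ± 9.86 TPM at 7 weeks and 2.66 ± 2.86 TPM at 8 weeks (SD, n = 12), and *WRKY* fell in 4 of 4 pairs, by 2.41 on the log2 scale (SE 0.41, adjusted p = 0.0013, edgeR), in a comparison in which 3.39% of genes were called. Without the libraries numbered 2 the change was -2.40, with an adjusted p of 0.15 in edgeR. Leaving out the long normal pair, whose 7-week group has labels that conflict, gave -2.43 (adjusted p = 0.01, edgeR).

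Whether lateral roots fell further than taproots was tested as an interaction over the medium and long normal pairs. The difference was -1.70 ± 0.55 (SE) on the log2 scale and did not pass the threshold (adjusted p = 0.13, edgeR, 1.24% of genes called). It passed with DESeq2 (adjusted p = 0.034), with limma on log2(TPM + 1) (0.047) and when all groups of Dataset 1 were fitted together in edgeR (0.039).

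Sowing date was compared at 8 weeks in long normal taproots. Summer seedlings were also harvested on a date of their own, so sowing date, harvest date and season cannot be told apart. Container taproots of summer seedlings read 6.02, 8.16 and 7.52 TPM, against the 3.91 to 4.95 TPM of spring seedlings given above. Rhizotron taproots read 9.98, 11.14 and 9.77 TPM in summer against 1.78, 1.51 and 1.5 TPM in spring. The groups did not overlap in either system, and *WRKY* was higher in summer by 1.65 ± 0.29 (SE) on the log2 scale (adjusted p = 0.0014, edgeR, 20.2% of genes called, means 8.77 ± 1.87 and 3.05 ± 1.63 TPM, SD, n = 6). The lateral roots of long container seedlings held a single pair, with 11.64, 11.74 and 11.86 TPM in summer against the spring values of 4.58 to 5.21 TPM. Here the libraries did not overlap either, but the log2 fold change of 1.12 ± 0.51 (SE) had an adjusted p of 0.11 in the edgeR fit of all groups of Dataset 1 (20.7% of genes called).

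Root part had opposite directions in the 2 datasets. In 6 of 8 pairs of Dataset 1, lateral roots had more *WRKY* than the matching taproots, by 0.76 ± 0.26 (SE) on the log2 scale (adjusted p = 0.0073, edgeR, 24.8 ± 40.8 against 7.62 ± 8.10 TPM, SD, n = 24 libraries). With 72.9% of all genes called in that comparison, a call is common there. The difference rested on the 7-week seedlings, whose lateral root values are given above. Without these 2 pairs, an alternative chosen after seeing the data, the log2 fold change was 0.22 ± 0.20 (SE, adjusted p = 0.31, edgeR), and without the libraries numbered 3 it was 0.54 (adjusted p = 0.066). Leaving out only the long 7-week pair, whose taproot group has labels that conflict, gave 0.62 (adjusted p = 0.034, edgeR). The reference gene *EF* (elongation factor) differed by -0.91 ± 0.08 (SE, adjusted p = 2.2e-13) between these parts and *UBQ* (ubiquitin) by -0.05 ± 0.04 (SE, adjusted p = 0.31).

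Among the 8-week seedlings of Dataset 1 the pairs disagreed. Long container seedlings sown in summer had a lateral root mean of 11.7 TPM, above the 7.23 TPM of their taproots, without overlap. For those sown in spring the lateral root mean of 4.96 TPM was close to the taproot mean of 4.51 TPM, and the libraries overlapped. Lateral roots of long rhizotron seedlings read 5.19, 4.99 and 4.51 TPM, all above the 3 taproot libraries at 1.5 to 1.78 TPM. Lateral roots of medium container seedlings, at 1.65 to 2.58 TPM, also lay above their taproots, at 0.85 to 1.43 TPM. Lateral roots of medium rhizotron seedlings, in contrast, read 3.66, 2.32 and 3.33 TPM, while their taproots read 9.83, 9.43 and 1.73 TPM and overlapped them. Lateral roots of thick container seedlings (4.46, 5.0 and 4.90 TPM) lay below their taproots (7.24, 7.32 and 5.44 TPM).

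In Dataset 2 the lateral roots had the lowest levels. The 7 lateral root groups had means of 2.38 to 7.71 TPM, the 13 groups of meristematic zones 4.67 to 11.8 TPM and the 10 groups of elongation zones 7.09 to 30.2 TPM. Over the 7 matched pairs *WRKY* fell by 1.17 on the log2 scale from the meristematic zone to the lateral root (SE 0.13, adjusted p = 8.6e-10, edgeR, 8.85 ± 3.01 to 4.89 ± 1.90 TPM, SD, n = 21, 67.1% of genes called). It was lower in 7 of 7 pairs on the scale of the test, where counts are scaled by TMM factors, and in 6 of 7 pairs by TPM. The pair in which the scales differ was that of long rhizotron seedlings, with 7.70, 8.10 and 7.34 TPM in lateral roots and 6.48, 7.53 and 7.97 TPM in the meristematic zone. In the averaged comparison *UBQ* changed by -0.35 ± 0.05 (SE, adjusted p = 1.0e-07, edgeR) and *EF* by -0.54 ± 0.10 (SE, adjusted p = 1.3e-05). The size for *WRKY* was -1.01 without TMM factors (adjusted p = 2.0e-08, edgeR) and -0.74 with limma on log2(TPM + 1) (adjusted p = 1.7e-07).

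The widest gap was seen in thick dying transplanted seedlings, in which lateral roots read 2.78, 2.90 and 2.85 TPM and meristematic zones 10.48, 11.35 and 12 TPM. Medium container seedlings read 4.09, 4.17 and 3.63 TPM in lateral roots and 9.52, 5.20 and 13.61 TPM in the meristematic zone. Medium rhizotron seedlings had the lowest lateral root level of Dataset 2 (2.20, 2.66 and 2.28 TPM) and also the lowest meristematic level (3.85, 5.41 and 4.76 TPM). In long transplanted seedlings the parts overlapped, with 5.39, 5.05 and 6.07 TPM in lateral roots and 5.78, 9.18 and 4.86 TPM in the meristematic zone.

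**Figure D2:**
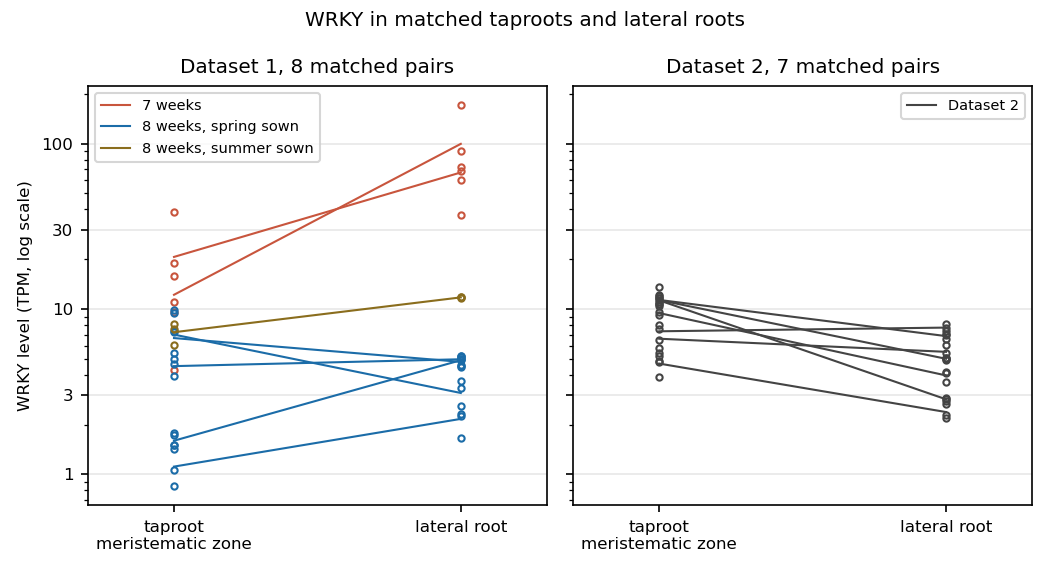
TPM of *WRKY* on a log axis in matched meristematic zones and lateral roots. Circles are libraries and each line joins the means (3 libraries) of 1 matched pair, coloured by harvest in Dataset 1. Lines rise in 6 of 8 pairs of Dataset 1, most steeply at 7 weeks, and fall in 6 of 7 pairs of Dataset 2.

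The difference between the datasets was itself tested, over 4 pairs of the same classes (medium and long normal seedlings, in containers and rhizotrons), taken at 8 weeks after spring sowing in Dataset 1. That the direction differs was known from these same libraries when the test was chosen. The test thus describes the size of the difference and is not independent support for it. The lateral root to taproot difference was lower in Dataset 2 (-1.45 ± 0.23 on the log2 scale, SE, adjusted p = 3.1e-06, edgeR, 44.5% of genes called), and it passed the threshold in every alternative run, from -1.66 to -1.16 when the libraries of 1 number were left out. The datasets differ in the year and in the age of the acorns, the labels give no seedling age for Dataset 2, and these cannot be told apart. In the same test the reference gene *UBQ* differed by -0.43 ± 0.08 (SE, adjusted p = 2.1e-05), and its part in the result was not tested. Among the 8 other genes with primers, used as a list for comparison, 3 differed between the datasets upwards and 2 downwards in the same test.

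Between the zones of the taproot, *WRKY* was higher in the elongation zone in 5 of 8 pairs (6 of 8 by TPM). The log2 fold change was 0.41 ± 0.16 (SE, adjusted p = 0.026, edgeR, 14.9 ± 9.14 against 9.19 ± 2.97 TPM, SD, n = 24, 65.3% of genes called). This call was lost when near-identical libraries were merged (0.48, adjusted p = 0.087), when the libraries of any 1 number were left out (0.32 to 0.49) and without the pair whose labels conflict (0.26, adjusted p = 0.19). Long rhizotron taproots carried much of it, with 39.77, 18.82 and 19.62 TPM in the elongation zone, all above the 6.48 to 7.97 TPM of their meristematic zone. Their own log2 fold change was 1.72 ± 0.26 (SE, adjusted p = 8.1e-08 in the edgeR fit of all groups of Dataset 2, 53.0% of genes called). Without that pair, an alternative chosen after seeing the data, the comparison gave 0.23 (adjusted p = 0.19, edgeR). Over all 8 pairs the reference gene *EF* changed by -0.70 ± 0.10 (SE, adjusted p = 3.0e-08, edgeR) and *UBQ* by -0.19 ± 0.04 (SE, adjusted p = 1.0e-04).

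The other pairs varied. Long container taproots read 11.62, 11.36 and 12.10 TPM in the elongation zone and 11.01, 10.77 and 12.16 TPM in the meristematic zone, and both groups overlapped. Medium rhizotron taproots read 12.20, 12.28 and 12.18 TPM in the elongation zone, the smallest spread of all groups, above the meristematic 3.85 to 5.41 TPM. Dying long transplanted taproots, the pair whose labels conflict, were also higher in the elongation zone (30.2 against 11.5 TPM, log2 fold change 1.40 ± 0.26, SE, adjusted p = 8.6e-06 in the fit of all groups, 44.3% of genes called). Dying long container taproots had the opposite order (7.09 against 11.3 TPM, -0.81 ± 0.26, SE, adjusted p = 0.016, 26.5% of genes called), and thick dying transplanted ones were at 9.74 against 11.3 TPM. Both calls were lost on merging (1.39 and -0.81, adjusted p = 0.35 and 1), and the container one without the libraries numbered 2 or 3 (-0.76 and -0.84, adjusted p = 0.067 and 0.13). Against lateral roots, the elongation zone was higher in 7 of 7 pairs, and the lateral roots were lower (-1.49 ± 0.16 on the log2 scale, SE, adjusted p = 5.5e-10, edgeR, 54.2% of genes called, means 4.89 ± 1.90 and 12.7 ± 7.44 TPM, SD, n = 21).

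**Figure D3:**
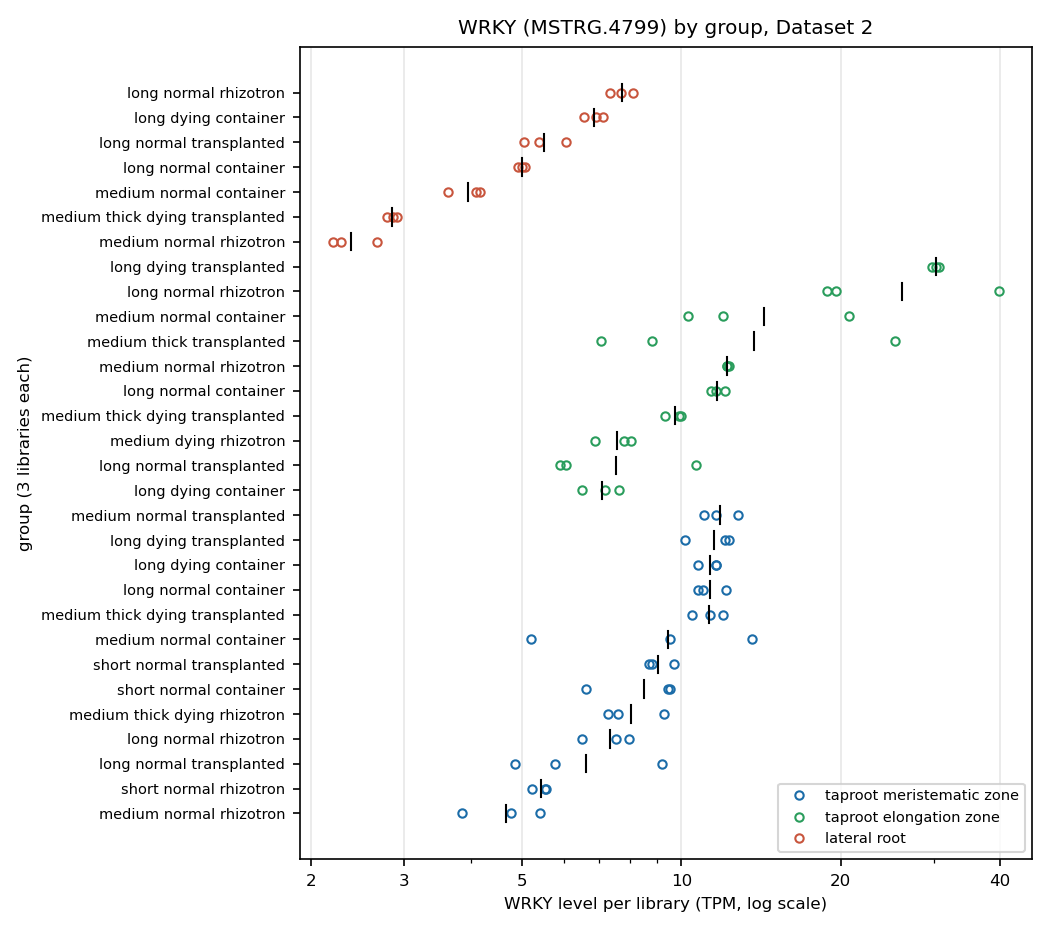
TPM of *WRKY* on a log axis in the 30 groups of Dataset 2, ordered by group mean within each root part. Circles are libraries and black bars are means of 3 libraries. Lateral root libraries lie between 2.20 and 8.10 TPM, and all libraries of 2 groups of elongation zones lie between 18.82 and 39.77 TPM. Single libraries of other elongation zone groups, at 20.7 and 25.35 TPM, also lie in that range.

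Taproot length was compared to find how expression changes as the root elongates. In Dataset 1, long container taproots had more *WRKY* than short ones at both ages, with the library values given above, by 2.46 ± 0.51 (SE) on the log2 scale (adjusted p = 0.0045, edgeR, 12.6 ± 14.1 against 2.21 ± 2.32 TPM, SD, n = 6, 30.9% of genes called). At 8 weeks the 2 lengths did not overlap, and at 7 weeks they did. Of the 2 pairs, the 7-week one holds the long group whose labels conflict. Without the libraries numbered 2 the change was 2.67 (adjusted p = 0.091, edgeR).

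In Dataset 2 the averaged comparison of long with short taproots was not called. Short taproots read 9.52, 9.42 and 6.60 TPM in containers, 5.55, 5.52 and 5.23 TPM in rhizotrons and 8.69, 8.80 and 9.67 TPM after transplanting. The long taproots of the same systems, given above, differed from them by -0.02 ± 0.11 (SE) on the log2 scale (adjusted p = 0.95, edgeR, 8.42 ± 2.53 against 7.67 ± 1.90 TPM, SD, n = 9, 2.12% of genes called). The length effect was tested for a difference between the datasets in normal container taproots alone, taken at 8 weeks in Dataset 1, and it was lower in Dataset 2 (-2.39 ± 0.37, SE, adjusted p = 0.0021, edgeR, 19.4% of genes called). With near-identical libraries merged the value was -2.5 and the call was lost (adjusted p = 0.24), as it was without the libraries numbered 2 (-2.79, adjusted p = 0.10). In the same test *UBQ* differed by -0.87 ± 0.21 (SE, adjusted p = 0.015), so that a gene chosen for even expression moved as well.

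The averaged comparison of long with medium taproots was not called in either dataset. In Dataset 1 the log2 fold change was 0.24 ± 0.57 (SE, adjusted p = 0.90, edgeR, 0.0249% of genes called), and the pairs disagreed. At 8 weeks long container taproots were above medium ones, while in rhizotrons long taproots (1.5 to 1.78 TPM) were below 2 of the 3 medium libraries (9.83 and 9.43 TPM), with a log2 fold change of -2.01 ± 0.55 (SE, adjusted p = 0.018 in the fit of all groups, 7.27% of genes called) that was lost on merging (-1.93, adjusted p = 0.24), without the libraries numbered 1 (-1.82, adjusted p = 0.11) and without those numbered 2 (-1.71, adjusted p = 0.38). In Dataset 2 it was 0.00 ± 0.20 (SE, adjusted p = 1, edgeR, 3.16% of genes called), where medium transplanted taproots read 11.05, 12.79 and 11.65 TPM and lay above the long ones. The change of that pair, -0.75 ± 0.26 (SE, adjusted p = 0.048 in the fit of all groups, 13.3% of genes called), was not called on merging (-0.76, adjusted p = 1) or without the libraries numbered 1 (-0.60, adjusted p = 0.073) or 3 (-0.66, adjusted p = 0.39).

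In lateral roots of Dataset 1, long and medium seedlings differed by 0.23 ± 0.29 (SE, adjusted p = 0.69, edgeR, 4.63% of genes called). Lateral roots of long rhizotron seedlings of Dataset 2 were, however, above those of medium ones (7.34 to 8.10 against 2.20 to 2.66 TPM), with a log2 fold change of 1.61 ± 0.28 (SE, adjusted p = 1.5e-05 in the edgeR fit of all groups, 23.9% of genes called). On merging, each of these groups was a single unit, and the change of 1.59 had an adjusted p of 0.89. The elongation zone of long rhizotron taproots also exceeded that of medium ones (18.82 to 39.77 against 12.18 to 12.28 TPM, log2 fold change 1.22 ± 0.26, SE, adjusted p = 4.0e-04, 19.5% of genes called), and this too was lost on merging (1.41, adjusted p = 0.75) and without the libraries numbered 1, when it was 0.67 (adjusted p = 0.050).

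Dieback had no single direction. In the meristematic zone of long taproots of Dataset 2, *WRKY* read 11.65, 11.61 and 10.75 TPM in dying container taproots and overlapped the normal ones (10.77 to 12.16 TPM). In transplanted seedlings dying taproots read 10.16, 12.29 and 12.11 TPM and normal ones 5.78, 9.18 and 4.86 TPM. The transplanted pair had a log2 fold change of 0.67 ± 0.26 (SE, adjusted p = 0.032 in the edgeR fit of all groups, 45.6% of genes called). That call was lost on merging (0.71), where the dying group was a single unit. The average difference was 0.29 ± 0.16 (SE) on the log2 scale (adjusted p = 0.14, edgeR, 49.9% of genes called), and 1 of its 2 pairs, the transplanted one, holds the group whose labels conflict.

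In the elongation zone the 3 pairs went apart. Dying long taproots of transplanted seedlings read 30.73, 29.80 and 30.21 TPM and normal ones 10.64, 5.91 and 6.07 TPM, a log2 fold change of 2.01 ± 0.27 (SE, adjusted p = 2.1e-08 in the edgeR fit of all groups, 28.5% of genes called). Dying long container taproots, in contrast, read 7.63, 6.48 and 7.17 TPM, all below the normal 11.36 to 12.10 TPM, a change of -0.85 ± 0.26 (SE, adjusted p = 0.013, 22.3% of genes called). Dying medium rhizotron taproots read 6.86, 7.80 and 8.05 TPM, also below the normal 12.18 to 12.28 TPM, but the change of -0.49 ± 0.26 (SE) had an adjusted p of 0.12 (48.2% of genes called). Both calls were lost when near-identical libraries were merged (2.05, adjusted p = 0.064, and -0.83, adjusted p = 1), and the container call was lost without the libraries numbered 2 or 3 (-0.82 and -0.83, adjusted p = 0.070 and 0.15).

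Averaged over these 3 pairs the change was 0.18 ± 0.34 (SE, adjusted p = 0.70, edgeR, 40.3% of genes called). The dieback effect was not shown to differ between the zones (0.31 ± 0.17, SE, adjusted p = 0.16, edgeR, 35.4% of genes called), a test that averages container and transplanted pairs of opposite direction. Without the transplanted pairs, of which 1 holds the group whose labels conflict, the container pairs gave -0.80 (adjusted p = 2.2e-07, edgeR). Each of these container groups merges into 1 unit of near-identical libraries, so that p-value rests on near-copies. Without the libraries numbered 1 the test of container and transplanted pairs gave 0.46 (adjusted p = 0.043, edgeR). In lateral roots of long container seedlings, those of dying taproots read 6.91, 7.10 and 6.55 TPM, above the normal 5.0, 5.07 and 4.92 TPM, and the change of 0.40 ± 0.27 (SE) was not called (adjusted p = 0.54, 3.60% of genes called).

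**Figure D4:**
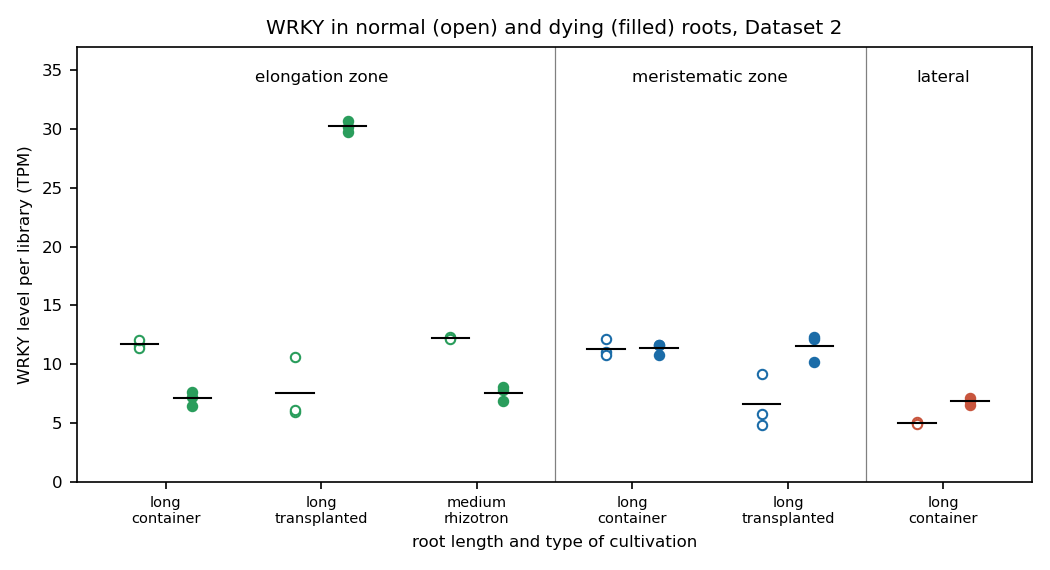
TPM of *WRKY* per library in normal (open) and dying (filled) roots of Dataset 2 for the 6 pairs of groups that differ in dieback alone among roots of normal thickness. Black bars are means of 3 libraries and the axis starts at 0. The elongation zone of transplanted seedlings rises to 30.2 TPM with dieback, and the other 2 elongation pairs lie lower with dieback, at 7.09 and 7.57 TPM.

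In Dataset 1 dying taproots differed from normal ones by -0.34 ± 0.46 (SE) on the log2 scale (adjusted p = 0.68, edgeR, 7.02 ± 4.49 against 10.7 ± 11.7 TPM, SD, n = 9, 10.2% of genes called). Without the 7-week pair, whose normal group has labels that conflict, the difference was -0.14 (adjusted p = 0.95, edgeR). Besides the container pairs given above, dying medium rhizotron taproots read 4.18, 4.73 and 5.80 TPM, within the wide range of the normal ones (1.73 to 9.83 TPM). A difference of the dieback effect between the datasets was tested in long container taproots, taken at 8 weeks in Dataset 1 (-0.23 ± 0.92, SE, adjusted p = 0.92, edgeR, 7.30% of genes called). This value depended on the libraries numbered 1, which hold the 10.19 TPM reading, and without them it was 1.67 (adjusted p = 1.3e-06, edgeR). The libraries then left were near-identical in every group except the normal taproots of Dataset 1, so that p-value rests largely on near-copies.

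Thick taproots had more *WRKY* than normal ones in Dataset 1. Medium container taproots read 7.24, 7.32 and 5.44 TPM when thick and 1.43, 1.06 and 0.85 TPM when normal. Long taproots of summer seedlings read 9.96, 10.85 and 10.94 TPM when thick and 6.02, 8.16 and 7.52 TPM when normal in containers, and 19.78, 18.29 and 20.22 TPM when thick and 9.98, 11.14 and 9.77 TPM when normal in rhizotrons. No pair of groups overlapped, and the log2 fold change was 1.23 ± 0.23 (SE, adjusted p = 3.7e-04, edgeR, 12.2 ± 5.72 against 6.21 ± 4.11 TPM, SD, n = 9, 45.0% of genes called). Taken singly in the edgeR fit of all groups, only the medium container pair was called (adjusted p = 4.7e-04). The summer pairs gave 0.36 ± 0.50 in containers and 1.03 ± 0.49 in rhizotrons (SE, adjusted p = 0.63 and 0.1). In the averaged comparison *EF* changed by -0.42 ± 0.08 (SE, adjusted p = 2.3e-04, edgeR) and *UBQ* by 0.16 ± 0.05 (SE, adjusted p = 0.023).

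In lateral roots of thick seedlings *WRKY* was higher by 0.97 ± 0.16 (SE) on the log2 scale (adjusted p = 0.0018, edgeR, 4.14 ± 0.790 against 2.63 ± 0.741 TPM, SD, n = 6, 21.5% of genes called). Container libraries did not overlap, at 4.46 to 5.0 against 1.65 to 2.58 TPM, and rhizotron libraries did, at 4.01, 3.17 and 3.28 TPM when thick and 3.66, 2.32 and 3.33 TPM when normal. The size depends on the scale: with limma on log2(TPM + 1) it was 0.51 and not called (adjusted p = 0.051). In the same comparison the reference genes *UBQ* and *EF* changed by -0.37 ± 0.08 (SE, adjusted p = 0.0048) and 0.42 ± 0.09 (SE, adjusted p = 0.0076). The call was also lost without the libraries numbered 2 (0.82, adjusted p = 0.062) or 3 (1.01, adjusted p = 0.051).

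Over medium container seedlings at 8 weeks, the thick effect was smaller in lateral roots than in taproots (-1.44 ± 0.32 on the log2 scale, SE, adjusted p = 0.0053, edgeR, 32.8% of genes called). That call was lost on merging (-1.41, adjusted p = 0.14), without the libraries numbered 2 or 3 (-1.57 and -1.37, adjusted p = 0.068 and 0.064) and in the fit of all groups (-1.45, adjusted p = 0.18). In that test *UBQ* differed by -0.57 ± 0.10 (SE, adjusted p = 0.0012) and *EF* by 0.98 ± 0.12 (SE, adjusted p = 1.5e-04).

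In Dataset 2 thickness was compared together with dieback. Thick dying taproots of medium length read 7.58, 7.27 and 9.28 TPM in rhizotrons, above the normal 3.85 to 5.41 TPM, and 10.48, 11.35 and 12 TPM after transplanting, among the normal 11.05 to 12.79 TPM. The average was 0.52 ± 0.13 (SE) on the log2 scale (adjusted p = 0.0041, edgeR, 9.66 ± 1.96 against 8.25 ± 3.99 TPM, SD, n = 6, 60.9% of genes called). It was not called on merging (0.55, adjusted p = 0.13), without the libraries numbered 3 (0.44, adjusted p = 0.055) or with limma on log2(TPM + 1) (0.31, adjusted p = 0.074). In the averaged comparison *UBQ* changed by -0.39 ± 0.07 (SE, adjusted p = 5.0e-04, edgeR) and *EF* by -0.44 ± 0.08 (SE, adjusted p = 7.8e-04). In the elongation zone of medium transplanted taproots, thick active roots read 25.35, 7.04 and 8.82 TPM and thick dying ones 9.91, 9.99 and 9.32 TPM, so that 1 library set the difference in means.

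Cultivation was compared because a rhizotron leaves the taproot free to grow, whereas a container does not. In Dataset 1 *WRKY* was higher in rhizotron taproots in 3 of 4 pairs (9.58 ± 7.06 against 5.86 ± 3.69 TPM, SD, n = 12), but the log2 fold change of 0.73 ± 0.35 (SE) was not called (adjusted p = 0.16, edgeR, 16.5% of genes called). Medium taproots at 8 weeks differed most, with 9.83, 9.43 and 1.73 TPM in rhizotrons and 0.85 to 1.43 TPM in containers (log2 fold change 2.60 ± 0.58, SE, adjusted p = 7.8e-04 in the fit of all groups, 18.7% of genes called). The long taproots of the same harvest had the opposite order, with 1.5 to 1.78 TPM in rhizotrons and 3.91 to 4.95 TPM in containers. The call for medium taproots was lost without the libraries numbered 2, when the change was 2.33 (adjusted p = 0.10). In lateral roots the change was 0.25 ± 0.13 (SE, adjusted p = 0.20, edgeR, 3.83 ± 0.935 against 3.97 ± 1.40 TPM, SD, n = 9, 21.3% of genes called), so that the fitted value and the means in TPM had opposite directions.

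In Dataset 2 the direction in the meristematic zone was the other way. *WRKY* was lower in rhizotrons in 3 of 3 pairs (-0.74 ± 0.14 on the log2 scale, SE, adjusted p = 0.0062, edgeR, 5.81 ± 1.31 against 9.76 ± 2.60 TPM, SD, n = 9), in a comparison in which 5.18% of genes were called. Short and long taproots did not overlap between the systems, and medium ones did, since 1 container library read 5.20 TPM. The call was lost on merging (-0.79, adjusted p = 0.37) and without the libraries of any 1 number (-0.87 to -0.65, adjusted p = 0.051 to 0.18). Whether the cultivation effect differs between the datasets was not tested.

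The elongation zone of medium container taproots read 10.29, 20.70 and 12.01 TPM, around the rhizotron values of 12.18 to 12.28 TPM. Long rhizotron taproots were above long container ones (18.82 to 39.77 against 11.36 to 12.10 TPM, log2 fold change 1.23 ± 0.26, SE, adjusted p = 2.7e-04 in the fit of all groups, 22.8% of genes called), a call that was lost on merging (1.42, adjusted p = 0.63). Averaged over both lengths the change was 0.52 ± 0.33 (SE, adjusted p = 0.33, edgeR, 9.65% of genes called). Without the libraries numbered 1, which hold the 39.77 TPM reading, the average was 0.15 and the change of the long pair 0.70 (adjusted p = 0.028). In lateral roots the change was -0.01 ± 0.20 (SE, adjusted p = 0.97, edgeR, 29.9% of genes called), with medium seedlings lower and long seedlings higher in rhizotrons.

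Transplanted seedlings were studied for the regrowth of a taproot after the container. They were older plants, sown a year earlier than the container and rhizotron seedlings of Dataset 2. Transplanting, plant age and the age of the acorns therefore cannot be told apart in these comparisons. Against container seedlings, *WRKY* in the meristematic zone changed by -0.17 ± 0.13 (SE) on the log2 scale (adjusted p = 0.37, edgeR, 9.75 ± 2.5 against 10.2 ± 2.34 TPM, SD, n = 12, 22.6% of genes called). The elongation zone had an average of 0.85 ± 0.47 (SE, adjusted p = 0.17, edgeR, 18.9 ± 12.6 against 9.39 ± 2.56 TPM, SD, n = 6, 36.2% of genes called). Its 2 pairs had opposite directions, since dying taproots read 29.80 to 30.73 TPM after transplanting and 6.48 to 7.63 TPM in containers, whereas normal ones read 5.91 to 10.64 TPM and 11.36 to 12.10 TPM. For the dying pair the log2 fold change was 2.25 ± 0.27 (SE, adjusted p = 3.7e-10 in the fit of all groups, 41.7% of genes called) and, with 1 unit in each group after merging, 2.26 (adjusted p = 0.17).

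Against rhizotron seedlings that were not transplanted, the elongation zone of long normal taproots was lower after transplanting (5.91 to 10.64 against 18.82 to 39.77 TPM, log2 fold change -1.83 ± 0.26, SE, adjusted p = 7.6e-07 in the fit of all groups, 14.5% of genes called), also on merging (-2.05, adjusted p = 0.047). The meristematic zone of medium taproots was higher (11.05 to 12.79 against 3.85 to 5.41 TPM, 1.20 ± 0.27, SE, adjusted p = 3.5e-04, 31.1% of genes called), a call that was lost on merging (1.25, adjusted p = 0.39). In both pairs the libraries did not overlap.

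**Figure D5:**
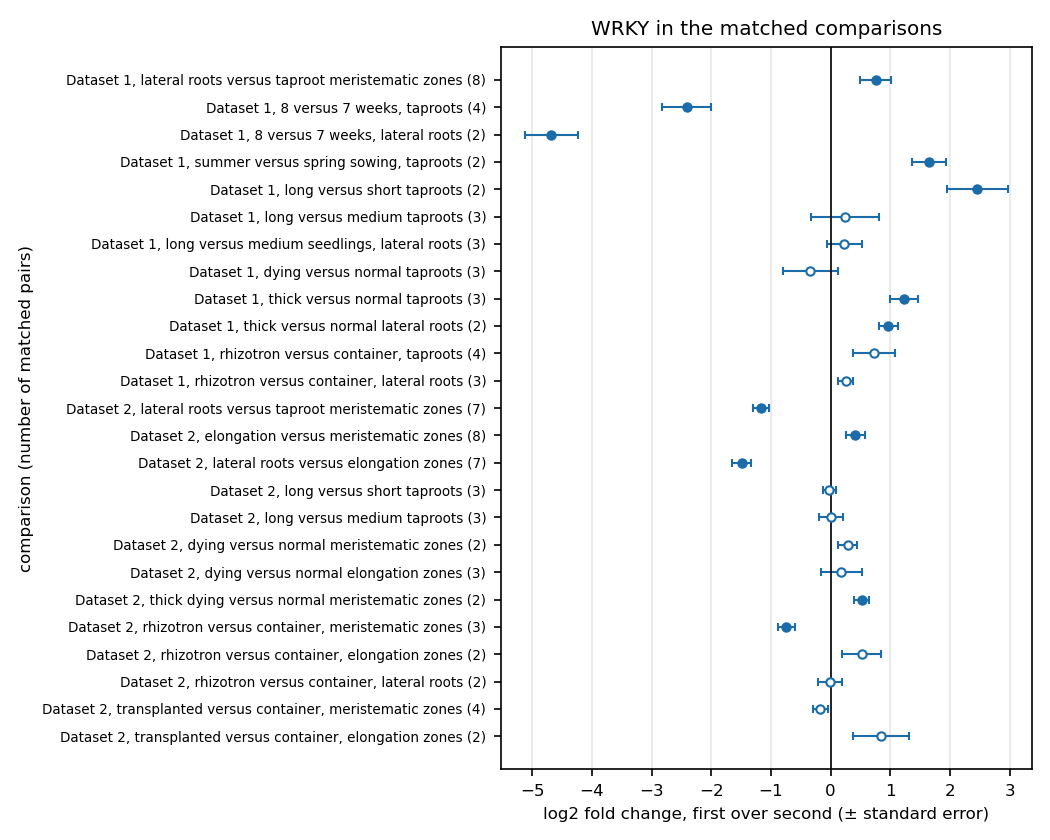
Log2 fold change of *WRKY* (first group over second) with its standard error in the 25 averaged comparisons, with the number of matched pairs in brackets. Filled points have an adjusted p under 0.05 in edgeR. The comparison of ages in lateral roots lies farthest from 0, at -4.68, and the comparison of lateral roots with meristematic zones lies at 0.76 in Dataset 1 and at -1.17 in Dataset 2.

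Taken one by one, the datasets hold 108 pairs of groups that differ in a single class. *WRKY* was called in 45 of them in the fit of all groups of a dataset, and in 13 when near-identical libraries were merged. Summed over these pairs, 27.8% of all tested genes were called, and 6.80% after merging. The libraries of the 2 groups did not overlap in TPM in 71 of the 108 pairs, as they did not in 46.3% of all cases over genes with a mean of at least 1 TPM. In 7 pairs, none of them called, the group means in TPM and the fitted log2 fold change had opposite directions. The single pairs named above were chosen after their values were seen.

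Other genes followed the pattern of *WRKY* across groups to different degrees. Likeness was the Pearson correlation of group means in log2 CPM, over the 25 groups of Dataset 1 and the 30 groups of Dataset 2, among 22519 genes with at least 1 TPM on average in each dataset. The libraries are of like depth and may in part come from the same seedlings, which the labels do not give. The values are therefore descriptions. The gene most like *WRKY* was MSTRG.11257 (r = 0.97 in Dataset 1 and 0.89 in Dataset 2), which has no gene name in the tables. Since it was chosen for its likeness in these libraries, its changes are given without a test. From 7 to 8 weeks it fell by 4.23 on the log2 scale in lateral roots (SE 0.39) and by 3.11 in taproots (SE 0.38). In lateral roots against meristematic zones MSTRG.11257 had a log2 fold change of 0.77 ± 0.26 (SE) in Dataset 1 and -1.07 ± 0.13 (SE) in Dataset 2. Whether the reads of both genes overlap was not tested. MSTRG.19368 followed, with r = 0.89 and 0.88.

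The genes of most opposite pattern were MSTRG.33003 (r = -0.76 and -0.66) and MSTRG.6644 (r = -0.66 and -0.75). On log2(TPM + 1) the former fell to r = -0.35 and -0.36, rank 578 among opposite genes, so its place depends on the scale. Among the other genes with primers, *GERL1* had an r of 0.18 in Dataset 1 and 0.73 in Dataset 2, and the others lay between -0.46 and 0.36. The reference gene *UBQ* had r = 0.18 and 0.13, and *EF* had r = -0.47 and -0.05. Of the 8 other genes with primers, which served as the list for comparison, 1 (*PCC13*) rose from 7 to 8 weeks in lateral roots, by 0.93 ± 0.21 (SE, adjusted p = 0.012, edgeR), where 12.6% of all genes were called. In lateral roots against meristematic zones 4 were higher and 4 lower in both datasets, where 72.9% and 67.1% of all genes were called.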

How the data were processed

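RNA-seq of *Q. robur* roots was read from gene-level tables of 165 libraries, grouped by the sample codes. For the deposited expected counts, the authors ran RSEM with Bowtie 2 on a StringTie transcriptome merged over all libraries, after adapter trimming, removal of ribosomal reads and mapping with STAR to Qrob_PM1N, with strandedness observed. They carry no normalization. The deposited TPM values are normalized by the authors to transcript length and library. No test for differential expression is named in the sources used here. Transcript-level tables and FPKM were not used.

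Expected counts were rounded, filtered with filterByExpr (minimum count of 10) and scaled by TMM factors. All genes were tested with the quasi-likelihood test of edgeR 4.0.16 in R 4.3.3, with the matched pair as covariate for the 25 averaged comparisons and 1 mean per group for the 6 interactions and the 108 single pairs. p was adjusted over all genes tested (Benjamini-Hochberg, threshold 0.05). Standard errors are the log2 fold change over the square root of F and are approximate. Alternatives comprised limma 3.58.1 on log2(TPM + 1) for genes of at least 1 TPM, DESeq2 1.42.0, no TMM factors, no filter, a mean count of at least 50, a replicate block, all groups in 1 fit, near-identical libraries merged (over genes with mean counts of 1000 to 10000), groups with conflicting labels left out, and each replicate number left out. The tests were also run on simulated counts with known changes, drawn as independent libraries. Those runs do not cover near-identical libraries, and their outcome is not reported here. Log2 CPM used a prior count of 1. The gene, the comparisons and the list of 8 other primer genes were chosen with earlier results of these data known.

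Of the named genes, *UBQ* and *EF* served as a check of scaling, and the 2 genes most like *WRKY* were those with the largest value of the lower of both datasets' correlations, the 2 most opposite ones those with the smallest value of the higher. Replicate numbers do not mark a shared seedling or day in the labels. Over 87 matched pairs of groups, deviations of same-numbered libraries correlated with r from -0.41 to 0.56 (median 0.01), with all 3 above 0.1 in 5 pairs, so the numbers were not used as pairs. Tables and figures were made in Python 3.11.15 (matplotlib 3.10.9, pandas 2.3.3, scipy 1.17.1).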

Additional observations from a re-analysis of the deposited data

Results flagged for a closer look

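For *WRKY*, 3 differences between settings passed the threshold in edgeR's quasi-likelihood test of the difference itself. The lateral root to taproot difference was lower in Dataset 2 than in Dataset 1 (-1.45 on the log2 scale, adjusted p = 3.1e-06), which was known in direction when the test was chosen. The long to short difference of container taproots was lower in Dataset 2 than in the 8-week seedlings of Dataset 1 (-2.39, adjusted p = 0.0021). The thick to normal difference was lower in lateral roots than in taproots of medium container seedlings (-1.44, adjusted p = 0.0053). Of these, the first was also called with near-identical libraries merged. Groups of 3 libraries were too small for a search for single outlying libraries.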

How the results depend on the processing

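Of the 31 comparisons and interactions of *WRKY*, 9 kept their direction and their side of the threshold in all alternatives run, and 22 changed in at least 1. Values are log2 fold changes, and the causes of these changes were not tested unless an alternative leaves out samples. With near-identical libraries merged, 5 calls were lost: elongation against meristematic zones of Dataset 2 (0.48), thick dying meristematic zones (0.55), rhizotron against container meristematic zones (-0.79), length by dataset (-2.5) and thickness by root type (-1.41). The rhizotron effect in lateral roots of Dataset 2 became 0.02, and 13 of the 108 single pairs were called in place of 45. With all groups in 1 fit, thick lateral roots (0.98) and thickness by root type (-1.45) lost their call, while the rhizotron effect in taproots of Dataset 1 (0.74) and in elongation zones (0.49), the transplanted elongation zones (0.82) and age by root type (-1.76) gained one. Age by root type was also called with DESeq2 (-1.73) and limma on log2(TPM + 1) (-2.04). With limma, thick lateral roots (0.51) and thick dying meristematic zones (0.31) were not called, and 3 uncalled results changed sign: the rhizotron effect in lateral roots of Dataset 1 (-0.01), long against short taproots of Dataset 2 (0.10) and dieback by dataset (0.48). Without TMM factors long against short taproots of Dataset 2 gave 0.07, and without a filter long against medium taproots of Dataset 2 gave -0.00. Without the groups whose labels conflict, elongation against meristematic zones fell to 0.26, long against medium taproots of Dataset 1 gave -0.10, dying meristematic zones -0.05 and dieback by zone -0.80 (container pairs only). Of the alternatives chosen after seeing the data, the omission of the 7-week pairs gave 0.22 for lateral roots of Dataset 1 and that of the long rhizotron pair gave 0.23 for elongation zones.

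With a replicate block, the side of the threshold was kept in all 31, and dieback by dataset gave 0.15, an uncalled value of other sign. The replicate numbers do not pair the libraries, as every library correlated best with its own number in 8 of 87 matched pairs of groups.

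When the libraries of 1 number were left out, values ranged as follows. In Dataset 1 they were 0.54 to 0.93 for lateral roots against taproots, -2.55 to -2.40 for age in taproots, 2.29 to 2.67 for long against short taproots, -0.06 to 0.45 for long against medium taproots, -0.00 to 0.48 for long against medium lateral roots, -0.59 to -0.14 for dying taproots, 0.14 to 0.35 for rhizotron lateral roots and 0.82 to 1.10 for thick lateral roots. In Dataset 2 they were 0.32 to 0.49 for elongation zones, -0.08 to 0.02 for long against short, -0.13 to 0.11 for long against medium, 0.23 to 0.37 for dying meristematic zones, 0.14 to 0.25 for dying elongation zones, 0.44 to 0.63 for thick dying, -0.87 to -0.65 for rhizotron meristematic zones, 0.15 to 0.82 for rhizotron elongation zones, -0.34 to -0.08 for transplanted meristematic zones and -0.04 to 0.01 for rhizotron lateral roots. For interactions they were -2.21 to -1.17 for age by root type, -2.79 to -2.10 for length by dataset, -0.79 to 1.67 for dieback by dataset, 0.17 to 0.46 for dieback by zone and -1.57 to -1.37 for thickness by root type. Depth limited only the groups with the lowest counts, from 8 per library.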
